A study of Mus musculus with 27 samples.

Results

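Fgf5, Otx2, Pou3f1, Lef1, Zic2 and Zic5 are genes commonly used as markers of the primed epiblast, and they were taken by symbol from the gene tables of the RNA-seq experiment, in which all 6 were found among 27080 gene identifiers. The cells were J1 mESCs, an established mouse embryonic stem cell line, grown without feeders in serum with LIF, a cytokine that holds the cells undifferentiated. Cells carried a lentiviral non-targeting control hairpin (shNT, 3 libraries, named shCon in the labels), shGas41-1 (3 libraries) or shGas41-2 (2 libraries), and the knockdown (KD) cells were taken 8 days after infection. For another comparison, tabulated apart, cells with the control hairpin were kept with LIF (EB day 0, 2 libraries) or grown as embryoid bodies, floating aggregates without LIF, for 6 days (EB day 6, 2 libraries). All 12 libraries therefore came from 1 cell line carrying a hairpin vector. Gas41 (gene symbol Yeats4) is a YEATS-domain protein shared by the Tip60/p400 and SRCAP complexes, which place the histone variant H2A.Z into chromatin. The KD comparisons asked which genes the loss of Gas41 changes in mESCs, and the EB comparison which genes normal differentiation changes.

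mESCs in serum and LIF resemble the naive epiblast of the embryo before implantation. After implantation the epiblast becomes primed: it stays pluripotent but lowers the naive factors, turns on Fgf5 and raises Otx2 and Pou3f1, and becomes able to respond to the signals that lead to germ layers. Wnt signalling, which acts through LEF1 and its TCF relatives, and FGF signalling drive the primitive streak and mesoderm, while ZIC and POU3F proteins are also used in early neural tissue. Single members can therefore be on in lineages other than the epiblast.

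The hairpin target sites are shown because each KD comparison rests on 1 hairpin. Exact matches were sought in annotated protein-coding transcripts only. Both shGas41 sites were found in those of Yeats4 and of no other gene, while none of the 6 marker transcripts held any of the 3 sites. The shGas41-1 site lay in the 3' untranslated part of exon 7 of 7 (mm9, chr10:116652513-116652533, minus strand), and the shGas41-2 site in the coding part of exon 2 of 7 (mm9, chr10:116659320-116659340, minus strand). The control sequence was in no annotated protein-coding mouse transcript. Noncoding transcripts and partial matches were not searched.
Non-targeting control: caacaagatgaagagcaccaa
shGas41-1: gtagcattccacgacgttaag
shGas41-2: atcgttaagccaatcgtttat

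Promoter sequences of Fgf5 and Lef1 are shown because these were the 2 markers upregulated in KD cells. Each window holds 250 bases before and 50 after a transcription start in RefSeq (GRCm38.p6, not the mm9 build of the counts). RefSeq windows were held for 4 of the 6 genes, namely Fgf5, Otx2, Lef1 and Zic5, and not for Zic2 and Pou3f1. Capitals mark CAGCAGG, letters bound by ZIC proteins, searched on both strands and present in 10.5% of 32851 promoters.
Fgf5 (chr5:98253934-98254233, plus strand): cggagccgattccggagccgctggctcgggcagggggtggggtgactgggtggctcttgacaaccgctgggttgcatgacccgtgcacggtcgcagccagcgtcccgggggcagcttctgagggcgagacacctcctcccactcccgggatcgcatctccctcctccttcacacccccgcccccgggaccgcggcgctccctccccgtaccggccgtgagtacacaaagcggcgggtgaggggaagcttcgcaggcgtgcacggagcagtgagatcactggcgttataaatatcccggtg
Lef1 (chr3:131110047-131110346, plus strand): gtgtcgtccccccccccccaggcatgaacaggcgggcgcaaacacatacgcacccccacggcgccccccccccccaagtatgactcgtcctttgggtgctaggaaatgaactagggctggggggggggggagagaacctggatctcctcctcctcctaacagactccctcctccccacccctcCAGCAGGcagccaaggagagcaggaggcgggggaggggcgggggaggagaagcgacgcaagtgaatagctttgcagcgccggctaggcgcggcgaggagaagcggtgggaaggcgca

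The Fgf5 window was rich in CpG, with 29 CpG and 68.3% G+C, and 87.1% of all promoters held fewer CpG. The Lef1 window shown, 1 of 4, held 18 CpG (more than 70.3% of promoters) and 67.3% G+C, and the Zic5 window 15 CpG and 62.7% G+C. The median over all promoters was 7 CpG and 52.7% G+C. The other Lef1 windows held 21, 8 and 5 CpG, with 67.3%, 51.7% and 43.7% G+C, and those with 8 and 5 CpG lacked the ZIC letters. The 4 Otx2 windows held 6, 8, 16 and 11 CpG. Of 3 other motifs searched on both strands, the TCF/LEF letters CTTTGA (16.0% of all promoters) were found in 1 of 4 Lef1 windows, the OTX letters TAATCC (7.06%) in 1 of 4 Otx2 windows and the POU octamer ATGCAAAT (1.74%) in none of the 10 windows of the 4 genes. A match of letters is a description and not evidence of binding.

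Library totals lay between 59224537 and 81524773 counts, so that 3 counts, taken as the floor, equalled 0.0368 to 0.0507 CPM. Levels are given as CPM, the count scaled to the library total, and fitted changes as log2 fold change (log2FC) from edgeR after TMM scaling. A gene is called upregulated or downregulated at a change of 2-fold or more with an adjusted p of 0.05 or less. The library of shGas41-1 replicate 3 stood apart from the other 2 of its group, where the chi-square of its counts against them, per degree of freedom, was 144 and 236, and 35.7 between those 2, and calls of the genes named below that turn on this library are given without it. The study's methods speak of biological repeats for its experiments in general, but the labels do not say what separated these libraries, so p-values measure the spread between these libraries, which may be technical. The core pluripotency factors Pou5f1, Sox2 and Sall4 were strongly expressed in the undifferentiated cells, with summed levels of 1896 to 2074 CPM in every shNT, KD and EB day 0 library.

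Yeats4, the target of the hairpins, was at 63.2, 54.5 and 52.1 CPM in shNT. It was at 3.50, 4.42 and 4.79 CPM in shGas41-1, and at 8.68 and 7.68 CPM in shGas41-2. The groups did not overlap, and Yeats4 fell by 3.66 on the log2 scale with shGas41-1 (adjusted p = 3.75e-04) and by 2.71 with shGas41-2 (adjusted p = 9.34e-04, edgeR's quasi-likelihood test). In EB day 6 it was at 46.1 and 50.2 CPM against 43.6 and 45.8 at day 0 (log2FC 0.19 ± 0.09 SE, adjusted p = 0.105).

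All 6 markers were upregulated in EB day 6, with both day 6 libraries above both day 0 libraries (37.4% of all genes tested lay above in this way and 45.4% below), and the means ran from 1.01 CPM for Pou3f1 to 247.6 CPM for Zic2. In KD cells, Lef1 was upregulated with both hairpins and Fgf5 with shGas41-1, while Otx2, Pou3f1, Zic2 and Zic5 were called with neither. The call of Fgf5 was lost when any 1 of the 6 libraries was left out. Both genes stayed far below differentiated levels, the KD means of Lef1 being 8.82% and 5.26% of its EB day 6 mean and those of Fgf5 0.233% and 0.137%. The counts set against all genes tested were 2 of 6 markers upregulated with shGas41-1, where 7.90% of 18274 genes were, 1 of 6 with shGas41-2, where 3.96% of 18405 genes were, and 6 of 6 in EB day 6, where 16.6% of 18287 genes were. No marker was downregulated in any of the 3, against 2.40%, 0.869% and 14.7% of the same genes. At an adjusted p of 0.05 or less with any size of change, the markers counted as higher were the same 2, 1 and 6 (all genes: 10.8%, 5.94% and 30.5%), and none was lower (all genes: 7.73%, 3.97% and 28.4%). The median log2FC over the 6 markers was 0.72, 0.26 and 3.33 in the 3 comparisons, where the median over all genes tested was 0.02, -0.01 and 0.00. Both KD comparisons used the same 3 shNT libraries. In bulk RNA, more cells that express a gene and more RNA per cell cannot be told apart.

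**Figure D1:**
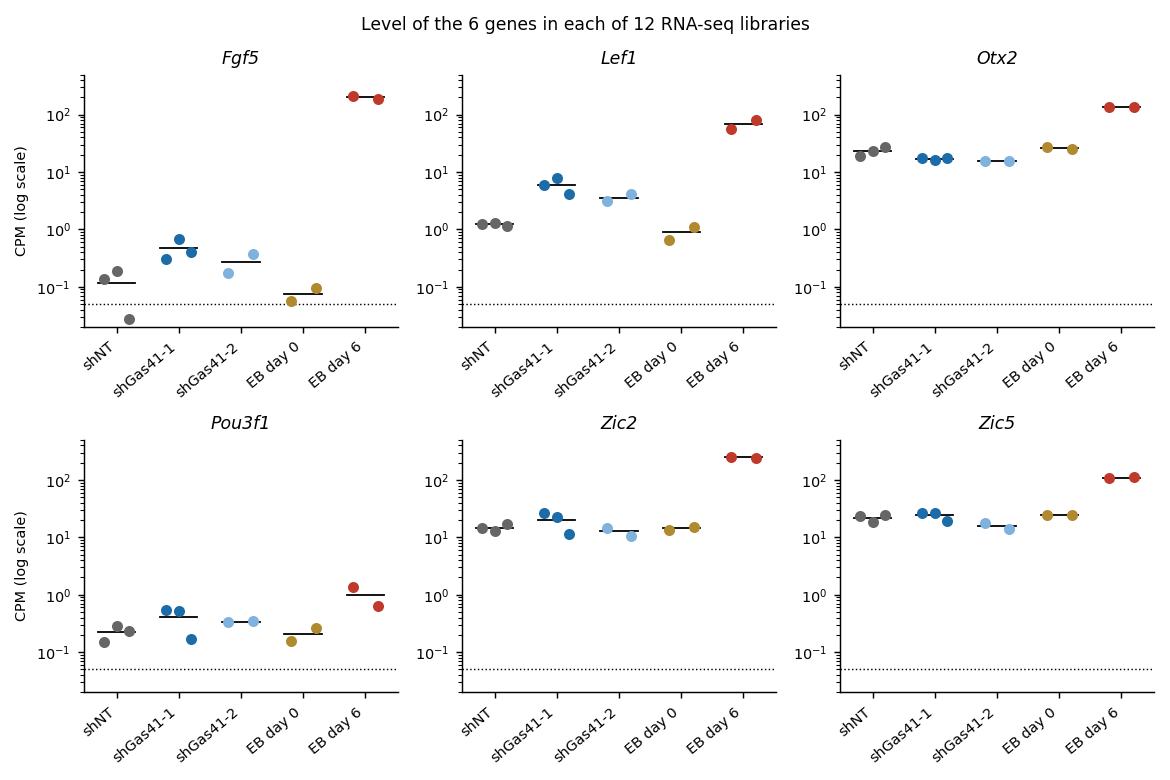
Level of each of the 6 genes (CPM, log scale) in each of 12 libraries of 5 groups; points are libraries, bars are group means, and the dotted line is the highest floor of 3 counts (0.0507 CPM). EB day 6 stood above every other library for all 6 genes, Lef1 was the gene whose KD libraries all stood above all shNT libraries with both hairpins, and Fgf5 lay below 1 CPM outside EB day 6.

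Fgf5 encodes a secreted fibroblast growth factor and lies on the plus strand of chromosome 5 (mm9, chr5:98683203-98706049). It had 8, 13 and 2 reads in the 3 shNT libraries, or 0.135, 0.188 and 0.0276 CPM, the last of them under the floor. In shGas41-1 it had 23, 54 and 26 reads (0.306, 0.690 and 0.402 CPM), and in shGas41-2 14 and 30 reads (0.172 and 0.374 CPM). All shGas41-1 libraries lay above all shNT libraries, as was so for 18.1% of the genes tested, whereas 1 shGas41-2 library lay within the shNT range. Upregulation with shGas41-1 was 2.08 ± 0.58 (log2FC, SE; adjusted p = 0.0388), with a 95% interval of 0.75 to 3.40. It rested on few reads: with 1 library left out the log2FC ran from 1.58 (without shNT replicate 3) to 2.63 (without shNT replicate 2), and the adjusted p from 0.0528 to 0.0933. With shGas41-2 the log2FC was 1.31 ± 0.69 (adjusted p = 0.252), and its interval of -0.28 to 2.91 held both no change and the value found with shGas41-1.

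In EB day 0 Fgf5 had 4 and 6 reads (0.0560 and 0.0942 CPM), just above the floor. In EB day 6 it had 14427 and 12841 reads (213.5 and 186.7 CPM). The fitted log2FC of 11.45 ± 0.18 (adjusted p = 1.22e-06) was the largest among the 6 markers, and the ratio of the means was 2665. Per kilobase of exon, Fgf5 went from the lowest level of the 6 genes at day 0 (0.0300 CPM per kb) to the highest at day 6 (80.0 CPM per kb).

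Lef1 encodes an HMG-box factor that binds beta-catenin and turns on Wnt target genes (mm9, chr3:130813389-130927274, plus strand). It was at 1.23, 1.28 and 1.15 CPM in shNT. In shGas41-1 it reached 6.02, 7.92 and 4.10 CPM, and in shGas41-2 3.10 and 4.07 CPM. Every KD library lay above every shNT library, as did 18.2% of the genes tested with shGas41-2, and the spread among the shNT libraries was small (SD 0.0694 CPM). Lef1 was upregulated by 2.37 ± 0.24 with shGas41-1 (adjusted p = 0.00223) and by 1.64 ± 0.20 with shGas41-2 (adjusted p = 0.00411, log2FC and SE, edgeR's quasi-likelihood test). The shGas41-1 call was kept in all 6 fits with 1 library left out (log2FC 2.14 to 2.54), including the fit without replicate 3, the lowest of its group. The shGas41-2 call was kept in 4 of 5 such fits and lost without shGas41-2 replicate 2, where the log2FC was 1.41 and the adjusted p 0.0511.

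At EB day 0 Lef1 was at 0.658 and 1.11 CPM, and at day 6 at 56.6 and 79.7 CPM. The fold was 76.9 between the means (log2FC 6.36 ± 0.29, adjusted p = 1.56e-05), the next after Fgf5. In the order of Lef1 levels the 3 mESC groups of the KD experiment ran shNT, shGas41-2, shGas41-1 with no overlap between shNT and either KD, while the highest shGas41-2 library (4.07 CPM) fell just below the lowest shGas41-1 library (4.10 CPM).

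Otx2 encodes a paired-type homeodomain factor needed for the exit from naive pluripotency and for the anterior brain (mm9, chr14:49277354-49287319, minus strand). Its shNT libraries were at 18.9, 23.3 and 27.4 CPM. The shGas41-1 libraries were at 17.6, 16.0 and 17.4 CPM, and the shGas41-2 libraries at 15.4 and 15.7 CPM. All 5 KD libraries lay below all shNT libraries, but with all libraries in the fit neither comparison passed the test. The log2FC was -0.36 ± 0.16 with shGas41-1 (adjusted p = 0.146; 95% interval -0.73 to 0.00) and -0.49 ± 0.16 with shGas41-2 (adjusted p = 0.0938; interval -0.87 to -0.12), so that both intervals lay above a 2-fold decrease. DESeq2 gave an adjusted p of 0.0392 for shGas41-2 with the same log2FC of -0.49. Without shNT replicate 1 the shGas41-2 value was -0.62 with an adjusted p of 0.00626, still under 2-fold. With the replicate number as a block it was -0.35 with an adjusted p of 3.34e-04, also under 2-fold. The adjusted p was 0.0564 by library size alone, 0.0729 with no filter, 0.0926 with halved counts and 0.108 in 1 fit over 8 libraries. It was 0.220 without shNT replicate 2 and 0.125 without shNT replicate 3. Without shGas41-2 replicate 1 or 2, which left 1 library in that group, the log2FC was -0.47 and -0.53. Non-overlap of this kind was common, since 24.1% (shGas41-1) and 32.0% (shGas41-2) of all genes tested had every KD library below every shNT library in CPM. In embryoid bodies Otx2 went from 26.9 and 25.4 CPM at day 0 to 136.4 and 138.4 CPM at day 6 (log2FC 2.48 ± 0.08, adjusted p = 6.05e-06).

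Pou3f1 encodes the POU-domain factor also called Oct6 (mm9, chr4:124334896-124337899, plus strand, 1 exon of 3004 bases). Of these bases 3003 were also covered by a second gene model on the same strand, ENSMUSG00000090125, an annotated pseudogene that has no row in the gene tables. The counting program leaves out reads that overlap 2 genes, so that the low level of Pou3f1 is uncertain, and the part of the second model in it was not tested. With that limit, Pou3f1 had 9, 20 and 17 reads in shNT (0.152, 0.288 and 0.235 CPM). It had 41, 41 and 11 reads in shGas41-1 (0.546, 0.524 and 0.170 CPM) and was at 0.331 and 0.349 CPM in shGas41-2. The first hairpin's libraries overlapped the shNT range through replicate 3, and those of the second lay just above it. With shGas41-2, 18.2% of all genes tested had every KD library above every shNT library. Neither comparison passed the test (log2FC 0.94 ± 0.46, adjusted p = 0.183, and 0.66 ± 0.40, adjusted p = 0.315), and without shGas41-1 replicate 3 the first was 1.26 with an adjusted p of 0.0501.

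At EB day 0 Pou3f1 was at 0.154 and 0.267 CPM, and at day 6 at 1.38 and 0.640 CPM (93 and 44 reads). It was upregulated by 2.34 ± 0.53 (log2FC, SE; adjusted p = 0.00901), but the 2 day 6 libraries differed by more than 2-fold and the call was lost without either day 0 library (adjusted p = 0.0789 and 0.0855). Pou3f1 had the lowest EB day 6 level of the 6 genes also per kilobase of exon, at 0.336 CPM per kb against 7.88 for Lef1, the next.

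**Figure D2:**
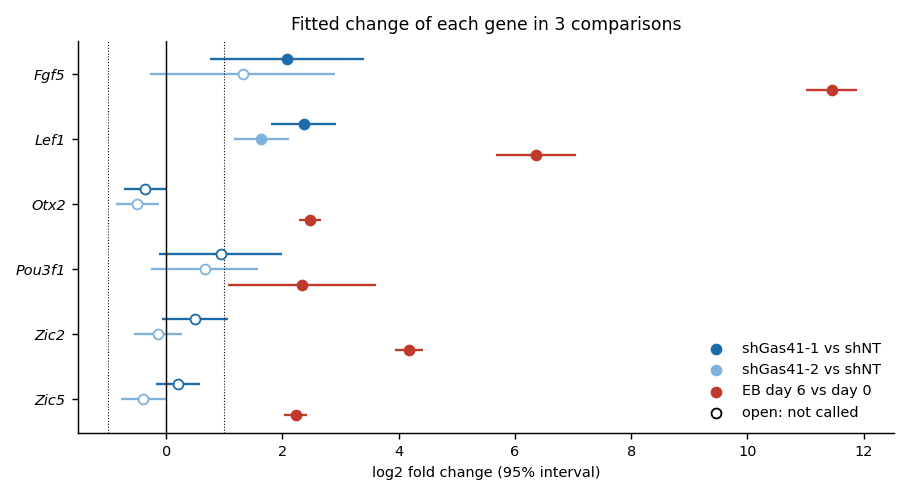
Fitted log2 fold change (x axis) of each gene (y axis) in 3 comparisons, with bars for the 95% interval; filled points passed both a 2-fold change (dotted lines) and an adjusted p of 0.05, open points did not. All 6 EB values lie to the right of the 2-fold line, from 2.22 for Zic5 to 11.45 for Fgf5, and the KD values called are those of Lef1 with both hairpins and of Fgf5 with shGas41-1.

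Zic2 and Zic5 encode zinc finger factors of the early neural plate and are neighbours that point away from each other on chromosome 14 (mm9; Zic5 chr14:122856017-122864899, minus strand; Zic2 chr14:122874604-122879074, plus strand). Their start sites are 9704 bases apart. Zic2 was at 14.6, 12.8 and 17.1 CPM in shNT. It was at 26.2, 22.2 and 11.7 CPM in shGas41-1 and at 14.8 and 10.6 CPM in shGas41-2. In shGas41-1 2 libraries lay above and replicate 3 below all shNT libraries, and the log2FC was 0.50 ± 0.25 (adjusted p = 0.192). Without replicate 3 it was 0.74 with an adjusted p of 0.0137, still under 2-fold, so this library decides whether the gene passes the adjusted p. With shGas41-2 Zic2 overlapped shNT (log2FC -0.14 ± 0.18, adjusted p = 0.637), and the value was 0.06 without shGas41-2 replicate 2.

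Zic5 was at 23.2, 18.2 and 24.5 CPM in shNT. It was at 26.3, 26.9 and 19.1 CPM in shGas41-1, overlapping shNT, and at 17.9 and 13.8 CPM in shGas41-2, below all shNT libraries. With shGas41-2, 32.0% of all genes tested lay below in this way. Neither change passed the test (log2FC 0.21 ± 0.16, adjusted p = 0.402, and -0.39 ± 0.17, adjusted p = 0.169), and the intervals of -0.17 to 0.58 and -0.78 to -0.01 held no 2-fold change in either direction. With the replicate number as a block, Zic5 with shGas41-2 was at -0.30 with an adjusted p of 0.00123. The block set aside shNT replicate 3, which had no shGas41-2 library of the same number.

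In embryoid bodies both genes rose, Zic2 more than Zic5. Zic2 went from 13.7 and 15.4 CPM to 254.3 and 241.0 CPM (log2FC 4.17 ± 0.10, adjusted p = 2.42e-06), and Zic5 from 24.2 and 24.9 CPM to 106.0 and 110.4 CPM (log2FC 2.22 ± 0.08, adjusted p = 8.37e-06). The ratio of Zic2 to Zic5 read counts turned with differentiation: it was between 0.565 and 0.994 in all 10 undifferentiated libraries and 2.40 and 2.18 in the EB day 6 libraries. Within the KD experiment the ratio was 0.629, 0.708 and 0.696 in shNT, 0.994, 0.826 and 0.612 in shGas41-1, and 0.830 and 0.767 in shGas41-2. No test was made of the ratio.

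Between them lies the noncoding RNA gene 2610035F20Rik (mm9, chr14:122869506-122872801, minus strand), named here after its values were seen, which starts 1802 bases from the start of Zic2. It was at 0.630 and 0.722 CPM at EB day 0 and at 9.13 and 8.32 CPM at day 6 (log2FC 3.77 ± 0.20, adjusted p = 2.82e-05). In shNT it was at 0.422, 0.808 and 1.20 CPM, in shGas41-1 at 1.69, 1.77 and 0.803 CPM, and in shGas41-2 at 0.736 and 0.674 CPM. Its groups overlapped and neither KD value passed the test (log2FC 0.87 ± 0.40, adjusted p = 0.160, and -0.13 ± 0.41, adjusted p = 0.864). As for Zic2, Zic5, Lef1 and Pou3f1, the lowest shGas41-1 library of this RNA was replicate 3.

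**Figure D3:**
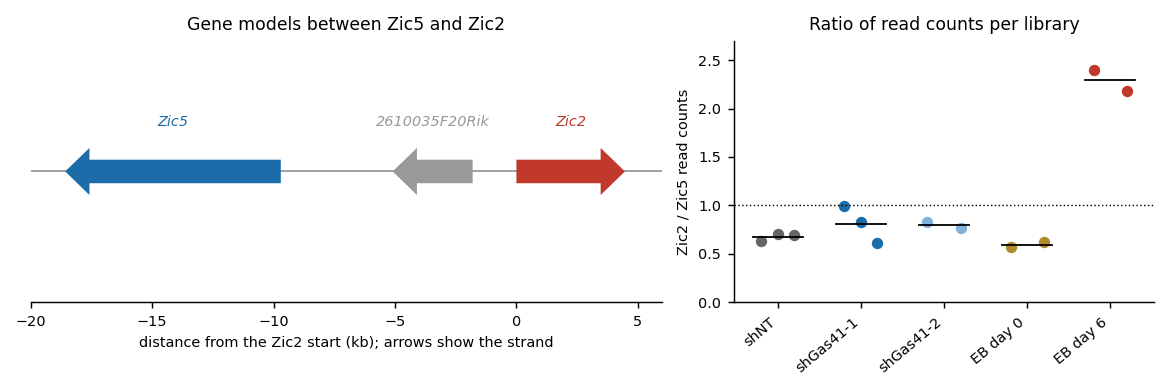
Left, gene models of Zic5, 2610035F20Rik and Zic2 by distance from the Zic2 start (kb), with arrows for the strand; right, the ratio of Zic2 to Zic5 read counts in each library (points) with group means (bars) and a dotted line at equal counts. Both EB day 6 libraries lie above 1, at 2.40 and 2.18, and all 10 undifferentiated libraries below it.

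Whether the 2 hairpins differed from each other was tested in 1 fit over 8 libraries. Of 19146 genes, 0 were upregulated (0%) and 0 downregulated (0%) in shGas41-1 over shGas41-2 by edgeR's quasi-likelihood test, with 1348 at an unadjusted p under 0.05, while DESeq2 called 37 and 30. None of the 6 markers was called by either. Lef1 was 0.74 higher with shGas41-1 on the log2 scale (95% interval 0.16 to 1.31, adjusted p = 0.586), Zic2 0.65 higher (0.02 to 1.27, adjusted p = 0.689) and Zic5 0.60 higher (0.19 to 1.02, adjusted p = 0.489). For Fgf5 the difference was 0.77 (-0.59 to 2.13), for Pou3f1 0.28 (-0.78 to 1.33) and for Otx2 0.13 (-0.24 to 0.50), with adjusted p of 0.883, 0.950 and 0.931. The intervals are for single genes and are not adjusted. Hence no marker was shown to respond differently to the hairpins, and except for Otx2 the intervals leave room for differences of 2-fold or more. Residual Yeats4 was 4.24 ± 0.66 CPM (SD, n = 3) with shGas41-1 and 8.18 ± 0.71 CPM (SD, n = 2) with shGas41-2.

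**Figure D4:**
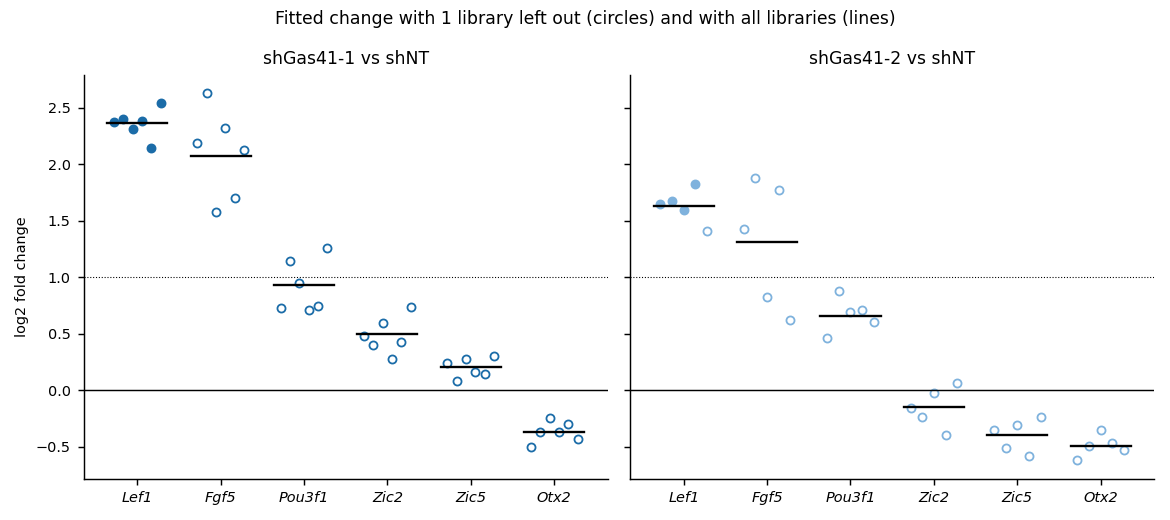
Fitted log2 fold change (y axis) of each gene against shNT with 1 library left out at a time (circles; filled where the gene was still called) and with all libraries (lines), for shGas41-1 (left, 6 fits) and shGas41-2 (right, 5 fits). All circles of Lef1 but 1 stay filled, all circles of Fgf5 are open, and Zic2 with shGas41-2 falls on both sides of 0.

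Each marker has relatives of the same gene family, which were read beside it. Levels between genes are compared here per kilobase of exon. Zic5 was at 4.49 and Zic2 at 3.54 CPM per kb in shNT, and in EB day 6 their order was turned, with Zic2 at 59.2 and Zic5 at 22.1. Zic1 was upregulated in embryoid bodies (3.76 ± 0.49, adjusted p = 8.67e-04) from a low level and lost its call without EB day 0 replicate 3 (adjusted p = 0.0567). Among the TCF/LEF genes, Tcf7 was at 14.4 CPM per kb in shNT, Tcf7l1 (a repressor of Wnt targets) at 4.55, Tcf7l2 at 0.999 and Lef1 at 0.141. In EB day 6 Tcf7 was at 51.6, Tcf7l1 at 8.78 and Lef1 at 7.88 CPM per kb, so that Lef1 had risen to the level of Tcf7l1.

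With the hairpins, 0 of 8 tested relatives were called in either KD comparison, out of 13 listed (all genes: 7.90% upregulated with shGas41-1 and 3.96% with shGas41-2). Tcf7 had a log2FC of -0.44 ± 0.21 and -0.28 ± 0.13 (adjusted p = 0.167 and 0.202), opposite in sign to Lef1. Tcf7l1 was higher with shGas41-2 at an adjusted p of 0.0127 but under 2-fold (0.68 ± 0.11), and had a log2FC of 0.78 ± 0.24 with shGas41-1 (adjusted p = 0.0547). The shGas41-1 value of Tcf7l1 turned on replicate 3, without which it was called (1.03, adjusted p = 0.00166). With all libraries its adjusted p was 0.0200 by DESeq2, 0.0402 with no filter and 0.0363 in 1 fit over 8 libraries, each under 2-fold. It was 0.0914 by library size alone, 0.108 with a replicate block and 0.0515 with halved counts, and up to 0.176 with a library left out. With shGas41-2 the adjusted p of Tcf7l1 was 0.146 in 1 fit over 8 libraries and 0.0680 without shNT replicate 2. It stayed under 0.05 by DESeq2, library size alone, no filter, halved counts and a replicate block, and without shNT replicate 1 or 3. Without shGas41-2 replicate 1 or 2, which left 1 library in that group, the log2FC of Tcf7l1 was 0.58 and 0.77. In embryoid bodies 4 of 9 tested relatives were upregulated (all genes: 16.6%) and 1 was downregulated (all genes: 14.7%). The latter was Fgf4, the FGF ligand of undifferentiated cells, which fell by 3.85 on the log2 scale (adjusted p = 2.33e-06) while Fgf5 rose. Fgf4 was at 155.6 CPM in shNT and at 147.0 and 154.6 CPM in the 2 KD groups. Otx1 (3.15 ± 0.52, adjusted p = 0.00250) and Pou3f4 (1.71 ± 0.53, adjusted p = 0.0302) were upregulated in EB day 6 at low levels, and each lost its call in at least 1 fit with a library left out (highest adjusted p 0.0958 and 0.173).

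**Figure D5:**
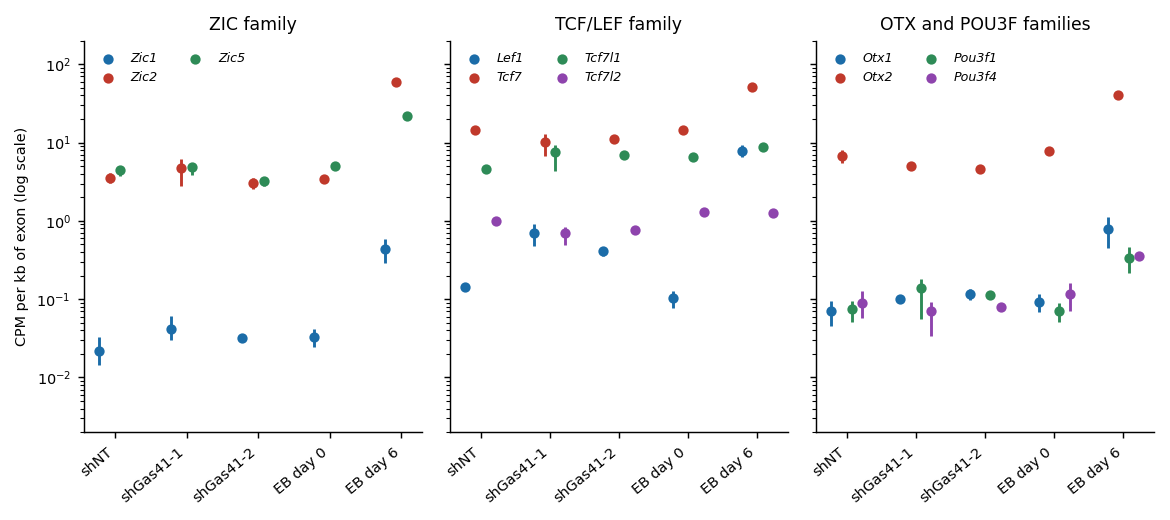
Level per kilobase of exon (CPM per kb, log scale) of ZIC, TCF/LEF, OTX and POU3F genes in 5 groups; points are group means and vertical lines the range over libraries. Zic2 stands above Zic5 in EB day 6 (59.2 against 22.1), Lef1 reaches the level of Tcf7l1 there (7.88 against 8.78), and Pou3f1 stays below 1 in every group.

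Other genes of formative and primed epiblast gave a mixed picture. Of 11 tested, 1 was upregulated with each hairpin (all genes: 7.90% and 3.96%), Sox3, a SOX factor of epiblast and neural ectoderm. Its log2FC was 1.18 ± 0.32 with shGas41-1 (adjusted p = 0.0368) and 1.11 ± 0.24 with shGas41-2 (adjusted p = 0.0284), and the calls were lost in 5 of 6 and 2 of 5 fits with a library left out (highest adjusted p 0.117 and 0.197). In the other direction 5 genes were lower with shGas41-1 at an adjusted p of 0.05 or less, all by less than 2-fold (all genes lower at any size of change: 7.73%). They were Dnmt3a, Tead2, Utf1, Etv4 and Tcf15 (named after their values were seen; log2FC -0.73, -0.86, -0.80, -0.67 and -0.53), and of them Tcf15 was also lower with shGas41-2 (-0.45, adjusted p = 0.0385). Without shGas41-1 replicate 3 all 5 still had an adjusted p of 0.05 or less (highest 0.0390, for Tcf15), with log2FC of -0.44 to -0.74. Without shNT replicate 2 the adjusted p rose to 0.110 for Tcf15, 0.0810 for Etv4 and 0.0516 for Utf1. It was 0.106 for Dnmt3a without shNT replicate 3. Tead2 stayed under 0.05 in each fit with a library left out (highest 0.0391). A replicate block left Utf1 under 0.05 (0.0391), while the rest ran from 0.0560 (Tead2) to 0.0894 (Tcf15). At EB day 6, 6 of the 11 were upregulated (all genes: 16.6%), led by Fgf8 (8.82 ± 0.14), the cadherin gene Cdh2 (6.31 ± 0.51) and the DNA methyltransferase gene Dnmt3b (3.49 ± 0.18). There, 3 were downregulated (all genes: 14.7%), Tcf15 (-2.59), Utf1 (-2.33) and Etv4 (-1.80).

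The naive factors, which primed cells lower, were downregulated for 3 of 12 genes with shGas41-1 (all genes: 2.40%), namely Tfcp2l1 (-1.55 ± 0.29, adjusted p = 0.00920), Klf4 (-1.13 ± 0.19, adjusted p = 0.00554) and Esrrb (-1.04, adjusted p = 0.0204), while Dppa3 was upregulated (2.90 ± 0.37, adjusted p = 0.00295). Klf4 was just under 2-fold (-0.97) without shNT replicate 3. Esrrb lost its call in 4 of 6 fits with a library left out, among them the fit without shGas41-1 replicate 3 (-0.81, adjusted p = 0.0102), and with the replicate number as a block (adjusted p = 0.0755). With shGas41-2 none of the 12 was called. Tfcp2l1 had a log2FC of -0.83 there (adjusted p = 0.0546), Esrrb of -0.44 (adjusted p = 0.0996) and Dppa3 of 1.15 (adjusted p = 0.0742). At an adjusted p of 0.05 or less with any size of change, 6 of the 12 were lower with shGas41-1 (all genes: 7.73%). With shGas41-2 1 was lower (all genes: 3.97%), Klf4 (-0.65, adjusted p = 0.0412). The numbers higher were 1 and 0 (all genes: 10.8% and 5.94%). Embryoid bodies at day 6 had 11 of 12 downregulated (all genes: 14.7%), led by Klf4 (-5.64 ± 0.09), Tcl1 (-5.00 ± 0.38) and Zfp42 (-4.87 ± 0.18). The core factors Pou5f1, Sox2 and Sall4 were called in neither KD comparison, and Sox2 was downregulated in EB day 6 (-1.93 ± 0.19, adjusted p = 2.84e-04).

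Of 8 FGF receptor and ERK feedback genes, 1 was upregulated with each hairpin (all genes: 7.90% and 3.96%). It was Fgfr2, with a log2FC of 2.42 ± 0.29 for shGas41-1 (adjusted p = 0.00273) and 1.08 ± 0.24 for shGas41-2 (adjusted p = 0.0310). The second call was lost in 4 of 5 fits with a library left out, with an adjusted p of up to 0.266. Embryoid bodies had 4 of the 8 upregulated (all genes: 16.6%), led by Dusp6 (2.13 ± 0.12), Fgfr2 (1.94 ± 0.19) and Spry1 (1.44 ± 0.14). Among 7 Wnt pathway and target genes, 1 was upregulated with shGas41-1 (all genes: 7.90%), the target Sp5 (1.49 ± 0.43, adjusted p = 0.0437). It lost its call in 5 of 6 fits with a library left out (adjusted p up to 0.139). With shGas41-2, 0 were upregulated (all genes: 3.96%), and Sp5 had a log2FC of 1.20 ± 0.31 (adjusted p = 0.0502). At EB day 6, 4 of the 7 were upregulated (all genes: 16.6%), led by Sp5 (6.96 ± 0.33) and Nkd1 (3.98 ± 0.18), and Notum was downregulated (-3.78 ± 0.17; all genes: 14.7%).

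Most tested markers of other lineages were upregulated in embryoid bodies, where 16.6% of all genes were: 6 of 6 for primitive streak and mesoderm, 2 of 3 for neural ectoderm, 4 of 5 for endoderm, 3 of 3 for trophoblast and 2 of 3 for fibroblasts. Calls of Pax3, Sox17, Gata3, Hand1, Col1a1 and Gata4 (named after its values were seen) were each lost in at least 1 fit with a library left out. Their log2FC stayed at 1.69 or more in these fits. The endoderm marker Sox7 was downregulated (-3.29, adjusted p = 2.74e-04), and the neural marker Pax6 had a log2FC of 0.03 (adjusted p = 0.953). The 6 primitive streak and mesoderm markers, all upregulated, summed to 1331 and 1901 CPM in the EB day 6 libraries against 9.69 to 10.2 CPM at day 0, led by T (log2FC 10.45 ± 0.19), Mesp1 (8.97 ± 0.96) and Mixl1 (8.93 ± 0.40), of which Mesp1 lost its call without EB day 0 replicate 3 (adjusted p = 0.0575). Neural ectoderm markers summed to 171.5 to 173.9 CPM against 12.5 to 13.3 CPM, nearly all of it Nes (4.15 ± 0.10). Endoderm markers summed to 59.1 to 148.2 CPM against 4.69 to 5.40 CPM, and trophoblast markers to 21.1 to 37.3 CPM against 0.925 to 0.973 CPM. Fibroblast markers summed to 9.71 to 10.3 CPM against 6.17 to 9.05 CPM. Embryoid bodies are mixed aggregates, and how much of each marker's level came from which cells was not tested.

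The sums of the streak, neural, endoderm and trophoblast lists were smaller in KD cells than in embryoid bodies, but single genes could differ from the sums. Pax6 had higher means with shGas41-1 and shGas41-2 (11.2 and 4.69 CPM) than in EB day 6 (2.49 CPM). Sox7 did too (1.40 and 2.71 against 0.220 CPM), while the means of Gata3 were lower (2.31 and 1.11 against 2.45 CPM). Streak and mesoderm markers summed to 8.02 to 20.2 CPM with shGas41-1 and 11.8 to 17.9 CPM with shGas41-2, overlapping the 10.6 to 14.7 CPM of shNT, and of the 6 genes Evx1 was upregulated with both hairpins (2.73 ± 0.51 and 2.85 ± 0.43) and Eomes downregulated with shGas41-1 (-1.0 ± 0.27). Trophoblast markers summed to 2.87 to 5.63 and 2.41 to 2.86 CPM against 0.359 to 1.10 CPM in shNT, with Gata3 upregulated by 4.30 ± 0.43 and 3.26 ± 0.37. Cdx2 was upregulated with shGas41-1 (2.50 ± 0.45), kept its call in all 6 fits with a library left out, and was not called with shGas41-2 (1.79 ± 0.52, adjusted p = 0.0681). The neural marker Pax6 was upregulated by 2.43 ± 0.37 with shGas41-1, and neural markers summed to 17.6 to 22.9 CPM there, to 12.3 to 14.7 CPM with shGas41-2 and to 10.9 to 11.5 CPM in shNT. Endoderm markers summed to 3.52 to 6.76 and 4.77 to 5.73 CPM against 2.79 to 3.48 CPM, with Gata6 (1.76 ± 0.40) called for shGas41-1 and Sox7 (1.23 ± 0.26) for shGas41-2. Fibroblast markers, which would show feeder cells, summed to 4.16 to 5.94 CPM with shGas41-1, below the 7.92 to 13.9 CPM of shNT, with Thy1 downregulated (-1.10 ± 0.22), and to 9.21 to 9.70 CPM with shGas41-2. With 1 library left out, the calls of Eomes (4 of 6 fits, -0.79 without shGas41-1 replicate 3), Gata6 (3 of 6), Thy1 (1 of 6, without shNT replicate 3), Sox7 (3 of 5) and Evx1 with shGas41-2 (1 of 5, without shGas41-2 replicate 2) were lost. Of the genes tested, shGas41-1 had 2 of 3 trophoblast, 2 of 3 neural, 1 of 5 endoderm and 1 of 6 streak markers upregulated (all genes: 7.90%). With shGas41-2 these counts were 1 of 4, 0 of 2, 1 of 5 and 1 of 6 (all genes: 3.96%). The part of these cell types in the levels of Lef1 and Fgf5 was not tested.

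Genes with a profile most like each marker were sought by the root mean square distance between log2(CPM + 1) profiles, each centred on its own mean, over the 12 libraries and 11964 genes. This is a description, in which the EB day 6 libraries weigh most. Genes needed a mean of at least 1 CPM over the 12 libraries, which some could reach through EB day 6 alone. Closest to Fgf5 were Apln (distance 0.223), Mixl1 (0.351) and T (0.406), where the median gene was at 2.76. All 3 were near or below 1 CPM in undifferentiated cells and reached 179.5 to 450.9 CPM in EB day 6. Closest to Lef1 were Dusp4 (0.207), an ERK phosphatase at 4.98 CPM in shNT, 17.0 and 12.3 CPM in the KD groups and 161.4 CPM in EB day 6, then Alox15 (0.316) and Cdx2 (0.441), with a median of 1.80. Closest to Otx2 were Tgfb1i1 (0.151), Fign (0.173) and Auts2 (0.181), which like Otx2 had lower means in both KD groups than in shNT. The KD libraries were among those used to pick them. Closest to Zic2 were Parp10 (0.223), Gprc5c (0.231) and Zeb2 (0.260), and to Zic5 Cdcp1 (0.0999), Ephb6 (0.159) and Ube2h (0.162). For Pou3f1 the nearest were Lrrc16a (0.104), Shc1 (0.114) and Slc17a5 (0.116), but the median gene lay at only 0.438, since a gene this low has a flat profile on the scale used.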

How the data were processed

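RNA-seq of 12 libraries was analysed from the deposited gene tables, and the other 15 samples (ChIP-seq) were not analysed here. Per the labels and methods, the authors sequenced TruSeq RNA libraries, aligned them with TopHat2 (2.0.10 in the submitters' processing notes) to mm9 and its transcriptome, and made gene counts with htseq-count. The counts were deposited raw, with no normalization. Columns of log2 fold change, p-value and FDR deposited beside them hold comparisons by the authors and were not used.

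The columns named ESC in the EB table were read as EB day 0 through the sample descriptions. Each KD was compared with shNT and EB day 6 with EB day 0 by edgeR 4.0.16 in R 4.3.3 (filterByExpr with a minimum count of 10 and minimum total of 15, TMM, quasi-likelihood test, Benjamini-Hochberg adjustment over all genes tested). The SE is the absolute log2FC divided by the square root of F. CPM used library totals, and CPM per kilobase the union of exons in GENCODE M1, to which 99.37% of identifiers matched. The test was tried on simulated counts. Replicates differed by a chi-square per degree of freedom of 29.2 to 236, so none was a repeat of another. The 6 markers and the other gene lists were chosen with earlier results of these data known. From each other list, up to 3 called genes with the largest absolute log2FC per comparison are named, plus relatives of the markers, Yeats4, and genes said to be named after their values were seen. Some genes of these lists are counted but not reported here by name. Alternatives were DESeq2 1.42.0, scaling by library size, no filter, a replicate block, halved counts, adjusted p alone, 1 fit over 8 libraries and leaving out each library.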

Additional observations from a re-analysis of the deposited data

How the results depend on the processing

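The number of markers called was 2, 1 and 6 with shGas41-1, shGas41-2 and EB day 6. It stayed so under DESeq2, library size alone, no filter, halved counts, adjusted p alone and 1 fit over 8 libraries (run for the KD comparisons), and 0 markers differed between the hairpins in every alternative. With shGas41-1, 1 marker (Lef1) was called in each fit with 1 library left out (1 to 1) and with a replicate block, where Fgf5 had a log2FC of 2.13 and an adjusted p of 0.0659. With shGas41-2, 0 to 1 markers were called with a library left out, the 0 being without shGas41-2 replicate 2, and with EB day 6, 5 to 6. Where this leaves 1 library in a group, it is assumed to vary like the others. Replicate numbers were not taken to pair the samples, since the labels name no shared batch. Deviations of same-numbered shNT and shGas41-1 libraries correlated at 0.0135, 0.134 and -0.357 and of the EB groups at 0.0478. Those of shNT and shGas41-2 correlated at 0.319 and 0.221, both positive but only 2 pairs. The shGas41-2 block set aside shNT replicate 3, which had no shGas41-2 library of the same number, so few libraries measured the spread. With shGas41-2 the block gave Otx2 an adjusted p of 3.34e-04 (-0.35) and Zic5 0.00123 (-0.30), both under 2-fold. It raised the genes upregulated with shGas41-2 from 728 to 1122 and gave 1019 against 1444 with shGas41-1. With 1 library left out the upregulated genes ran from 905 to 1510, 269 to 1174 and 2041 to 2946 (of 1444, 728 and 3030), and the downregulated from 290 to 549, 18 to 293 and 1669 to 3027 (of 438, 160 and 2696).

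Changes of sign were found for values that were not called. Zic2 with shGas41-2 ran from -0.392 to 0.062 with a library left out, Fgf4 with shGas41-1 from -0.0928 to 0.0932 (0.00182 with halved counts), 2610035F20Rik with shGas41-2 from -0.429 to 0.269 (0.304 with the replicate block) and Tcf7l2 in EB day 6 from -0.0275 to 0.155 (-0.0238 by library size alone); Fgf4 with shGas41-2 was -0.00917 by library size alone. The cause was not tested. Fgf5 and Pou3f1 had between 2 and 54 and between 9 and 41 reads in the undifferentiated libraries. With halved counts the shGas41-1 call of Fgf5 was kept (2.16, adjusted p = 0.0261).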

Other observations

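The undifferentiated controls of the KD and EB comparisons were not compared by a test, since they were titled and tabulated separately. The labels do not say whether they were made together. The EB day 0 mean was 0.643 times the shNT mean for Fgf5, 0.726 times for Lef1 and 0.935 times for Pou3f1. It was 0.980 times for Zic2, 1.12 times for Zic5 and 1.13 times for Otx2. Against the EB day 6 mean, shNT stood at 0.0583% for Fgf5, 1.79% for Lef1, 5.99% for Zic2, 16.9% for Otx2, 20.3% for Zic5 and 22.3% for Pou3f1.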
